A study of Homo sapiens with 12 samples.

Results

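The genes described are 10 components of the machinery that couples amino acid supply to mTORC1 at the lysosome and that restrains TFEB: folliculin (FLCN) with its partners FNIP1 and FNIP2, the Rag GTPases RRAGA, RRAGB, RRAGC and RRAGD, and the Ragulator subunits LAMTOR1, LAMTOR2 and LAMTOR3. They were taken by name as parts of this machinery, with earlier results of these data known, and all 10 were found among the 57820 genes of the deposited table and passed the filter on low values. RNA-seq had been performed on HL60, a human acute myeloid leukaemia line of promyelocytic type, with 3 biologically independent replicates in each of 4 groups. TFEB-Dox and TFEB-Veh cells carried pRRL-TFEBS211A-puro, a vector from which TFEB with serine 211 changed to alanine is induced by doxycycline, and EV-Dox and EV-Veh cells carried the empty pRRL-EV-puro. TFEB-Dox and EV-Dox cells had received doxycycline (1 µg/ml, 48 h) and TFEB-Veh and EV-Veh cells vehicle, by the samples' titles and treatment labels, although the protocol text gives the drug for every sample. Whether each line was a pool or a single clone was not stated in the labels, and the drug's own action is shared by TFEB-Dox and EV-Dox.

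Rag GTPases work as heterodimers of RagA or RagB with RagC or RagD, held on the lysosomal surface by the Ragulator complex. When amino acids are plentiful, the folliculin-FNIP complex acts as a GTPase-activating protein for RagC and RagD, the Rag dimer recruits mTORC1 and TFEB, and mTORC1 phosphorylates TFEB, which is then held in the cytosol. Serine 211 is one of the phosphorylated sites, so the alanine form escapes this retention, and several of the genes that make up the pathway are known targets of TFEB and its relatives.

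The induced gene was checked first. TFEB had 17468, 22629 and 14470.4 normalized reads in the TFEB-Dox libraries, against 79.8 to 196 in the 9 other libraries, a log2 difference from TFEB-Veh of 7.18 (SE 0.44, limma adjusted p = 3.14e-17). Recovered reads per library ranged from 13931354 to 20267420 in TFEB-Dox, 7769481 to 13933397 in TFEB-Veh, 4474007 to 11681639 in EV-Dox and 10709170 to 22488047 in EV-Veh. The deposited scaling did not level the expressed genes: the median ratio over 7290 well expressed nuclear genes (mean 200 or more) was 1.28 to 1.81 in TFEB-Dox, 0.622 to 1.04 in TFEB-Veh, 0.312 to 0.898 in EV-Dox and 0.993 to 2.20 in EV-Veh. EV-Dox replicate 3 (lowest) and EV-Veh replicate 2 (highest) stood apart in this ratio, and calls and ratios that turn on them are given with and without them. Mitochondrial transcripts took 13.3 to 17.9% of the total in TFEB-Dox, 23.8 to 29.4% in TFEB-Veh, 26.2 to 33.1% in EV-Dox and 21.0 to 26.5% in EV-Veh. The summed level of 7 promyelocytic markers (MPO, ELANE, AZU1, PRTN3, CTSG, CD33, SPI1) was 10499 to 15050 in TFEB-Dox, 49257 to 95828 in TFEB-Veh, 5177 to 30405 in EV-Dox and 66159 to 217427 in EV-Veh, and none of the 7 was at 0. Averaged over all 12 libraries MPO made up most of that sum. In TFEB-Dox against TFEB-Veh, MPO changed by -3.46, PRTN3 by -3.75 and AZU1 by -2.44, and ELANE (-0.00), SPI1 (0.47), CTSG (-0.85) and CD33 (-0.53) were not called. Beside this, 4 macrophage markers (CD14, CD68, MARCO, CSF1R) summed to 7403 to 11055 in TFEB-Dox, 289 to 349 in TFEB-Veh, 248 to 813 in EV-Dox and 285 to 494 in EV-Veh. The 4 did not move together: in TFEB-Dox against TFEB-Veh, MARCO changed by 7.89 and CD68 by 4.52, CSF1R by -1.93, and CD14 by 0.79 (not called). The part of depth, scaling and cell state in the results below was not tested, except through the other scalings given beside them.

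Values below are normalized read counts as deposited, and changes are differences of log2(value + 1) from a limma fit of all 4 groups with Benjamini-Hochberg adjustment over 23128 genes. In TFEB-Dox against TFEB-Veh, 8 of the 10 genes rose and none fell, where 17.4% of all tested genes rose and 4.66% fell. The median change was 2.18 over the 10 genes, against -0.00 over all tested genes. All 10 have a mean of at least 50. With only genes of that level tested, 30.5% rose and 5.36% fell, with a median of 0.47. The folliculin partner FNIP2 changed most, followed by RRAGC and RRAGD, and only RRAGB and LAMTOR2 did not pass the threshold. The 8 calls were made in all 26 alternative settings run, and RRAGB and LAMTOR2 were called in 0 of 26. With libraries scaled on the expressed nuclear genes, the median of all tested genes shifted to -0.75. The same 8 genes were called, where 13.1% of genes rose and 19.0% fell. Their changes were then 5.28 for FNIP2, 3.41 for RRAGC, 2.79 for RRAGD and 1.66 for RRAGA. FLCN changed by 1.502, LAMTOR1 by 1.36, LAMTOR3 by 1.28 and FNIP1 by 1.12. Each of these 8 changes was smaller than on the deposited scale, on which the fold differences below are given.

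**Figure D1:**
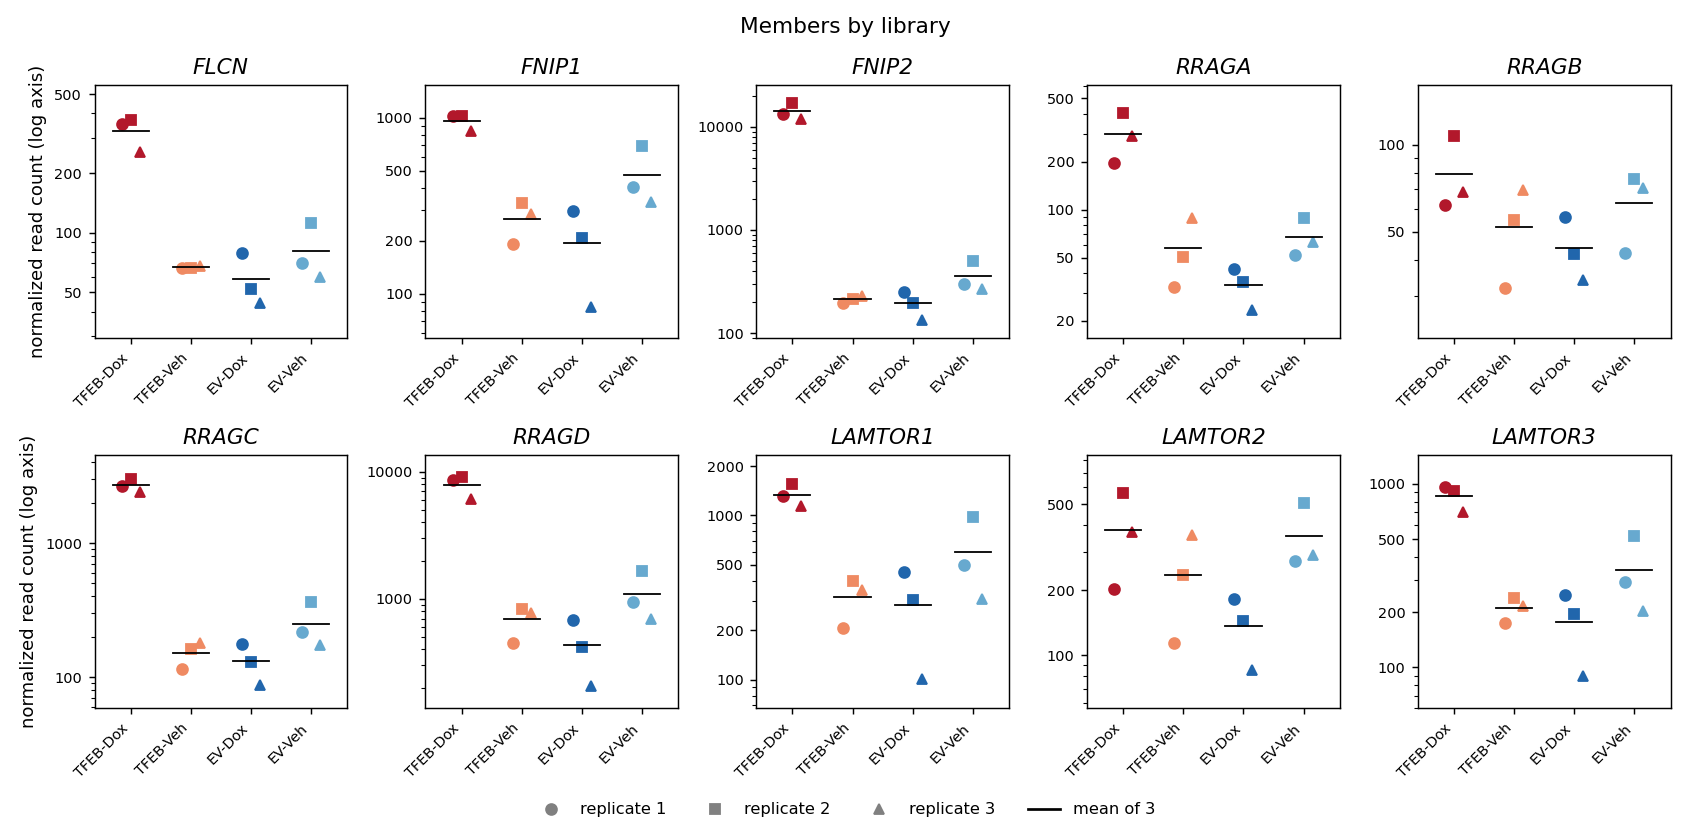
Normalized read count (log axis) of each of the 10 genes by group; symbols are the 3 replicates and the bar is their mean. The 3 TFEB-Dox libraries sit above all 9 other libraries for 8 genes, while for RRAGB and LAMTOR2 they overlap the controls.

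Of the folliculin complex, FLCN is the subunit whose loss causes Birt-Hogg-Dubé syndrome. FLCN had 353, 371 and 254 normalized reads in TFEB-Dox, 66.7, 66.7 and 67.5 in TFEB-Veh, 79.0, 52.0 and 43.9 in EV-Dox, and 70.2, 112 and 60.1 in EV-Veh. Every TFEB-Dox library lay above every other library, the lowest being 2.27 times the highest control, EV-Veh replicate 2, and 3.22 times the highest of the others. With libraries scaled on expressed genes, the lowest TFEB-Dox library was 1.33 times the highest control, which was then EV-Dox replicate 3. On the deposited scale FLCN rose by 2.25 (SE 0.34, limma adjusted p = 9.64e-07) against TFEB-Veh, a 4.75-fold difference.

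FNIP2 encodes folliculin-interacting protein 2, one of a pair of FLCN partners. It had 13410.5, 16974 and 11999.7 normalized reads in TFEB-Dox, 195, 214 and 229 in TFEB-Veh, 251, 197 and 134 in EV-Dox, and 299.7, 499 and 268 in EV-Veh. The highest control was EV-Veh replicate 2, and the lowest TFEB-Dox library was 24.1 times that value, and 40.04 times the highest of the other controls. The mean was 14128 ± 2564 in TFEB-Dox and 213 ± 17 in TFEB-Veh (SD, n = 3 each). FNIP2 rose by 6.03 (SE 0.48, limma adjusted p = 6.23e-14), a 65.5-fold difference and the 98th largest rise among the 23128 genes.

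FNIP1, the paralogous partner, changed less, as the ratio of the pair given further on shows. Its values were 1023, 1019 and 839 in TFEB-Dox, 189.9, 326 and 284 in TFEB-Veh, 293, 205 and 83.4 in EV-Dox, and 404, 686 and 332 in EV-Veh. TFEB-Dox lay above all controls, but the lowest TFEB-Dox library was only 1.22 times the highest control, EV-Veh replicate 2, and 2.08 times the highest of the others. The rise against TFEB-Veh was 1.87 (SE 0.47, limma adjusted p = 0.00222).

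Among the Rag GTPases, RRAGC and RRAGD had the largest changes. RRAGC had 2673, 3020 and 2389 normalized reads in TFEB-Dox, 115, 161 and 179.8 in TFEB-Veh, 177, 131 and 87.9 in EV-Dox, and 217, 361 and 175 in EV-Veh. The groups did not overlap, with the lowest TFEB-Dox library at 6.62 times the highest control, EV-Veh replicate 2 (11.03 times without that library), and the rise was 4.16 (SE 0.44, limma adjusted p = 2.38e-10), 17.8-fold. RRAGD, whose product can replace RagC, had 8544, 9026 and 6103 in TFEB-Dox, 454, 839.6 and 775 in TFEB-Veh, 687, 415 and 206 in EV-Dox, and 941, 1647 and 696 in EV-Veh. Again all TFEB-Dox libraries were highest, the lowest at 3.71 times EV-Veh replicate 2 (6.48 times the highest control without it), and RRAGD rose by 3.54 (SE 0.54, limma adjusted p = 1.21e-06), 11.7-fold.

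RRAGA and RRAGB encode closely related GTPases, and how the counting treated reads that match both was not stated. RRAGA had 195, 405 and 291 normalized reads in TFEB-Dox, 32.9, 50.6 and 88.4 in TFEB-Veh, 42.5, 35.2 and 23.3 in EV-Dox, and 51.5, 88.3 and 63.0 in EV-Veh. TFEB-Dox did not overlap the controls, and RRAGA rose by 2.40 (SE 0.35, limma adjusted p = 5.11e-07). RRAGB had 61.8, 108 and 68.5 in TFEB-Dox, 31.96, 54.6 and 69.5 in TFEB-Veh, 56.0, 41.9 and 34.1 in EV-Dox, and 42.1, 76.4 and 70.7 in EV-Veh. Only 1 TFEB-Dox library was above every control, and the change of 0.62 (95% interval -0.03 to 1.28, limma adjusted p = 0.177) did not pass and was -0.11 with libraries scaled on expressed genes. RRAGA and RRAGB also had the fewest reads of the 10 genes, with as few as 26 and 35 recovered reads in a library.

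The Ragulator subunits anchor the Rag dimer to the lysosomal membrane, LAMTOR1 through its lipid-modified end and LAMTOR2 and LAMTOR3 as a roadblock-domain pair. LAMTOR1 had 1312, 1555 and 1147 normalized reads in TFEB-Dox, 207, 397 and 349.6 in TFEB-Veh, 452, 304 and 100.5 in EV-Dox, and 499.9, 979.8 and 311 in EV-Veh. Its rise was 2.11 (SE 0.51, limma adjusted p = 0.00163), and the lowest TFEB-Dox library was 1.17 times the highest control, EV-Veh replicate 2, and 2.29 times the highest of the others. LAMTOR3 had 959, 917 and 703 in TFEB-Dox, 175, 238 and 218 in TFEB-Veh, 247, 195 and 89.7 in EV-Dox, and 294, 521 and 204 in EV-Veh. It rose by 2.02 (SE 0.45, limma adjusted p = 0.000554) without overlap, and its processed copies LAMTOR3P1 and LAMTOR3P2 stayed at or below 9.13 and 2.69.

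LAMTOR2 was the Ragulator subunit among the 3 that did not pass. It had 202, 565 and 374 normalized reads in TFEB-Dox, 114, 235 and 359.6 in TFEB-Veh, 182, 145 and 85.2 in EV-Dox, and 273, 506 and 292 in EV-Veh. TFEB-Dox overlapped TFEB-Veh and EV-Veh, and the change against TFEB-Veh was 0.71 (95% interval -0.20 to 1.63, limma adjusted p = 0.287). On the scale of expressed genes its means were 248 ± 80.3 in TFEB-Dox, 253 ± 83.6 in TFEB-Veh, 234 ± 36.0 in EV-Dox and 249.7 ± 37.1 in EV-Veh (SD, n = 3 each), a change of -0.03 against TFEB-Veh.

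In all, 8 of the 10 genes had each TFEB-Dox library above each of the 9 controls on the deposited scale and on that of expressed genes, where 13.6% and 11.4% of all tested genes did. Overlapping neighbours in the GENCODE 29 annotation, whose release may differ from the one used for counting, make some values less certain, since the strand setting was not stated. FLCN overlaps MPRIP, FNIP2 overlaps C4orf45 and LAMTOR1 overlaps LRTOMT on the other strand, and on their own strand FLCN overlaps 2 further annotated genes and FNIP1 and RRAGC 1 each.

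Levels can be compared between genes per length of annotated exon (normalized reads per kilobase of the GENCODE 29 exon union). In TFEB-Dox the order was RRAGD with a level of 1556 ± 309 per kilobase, FNIP2 with 1299.96 ± 236, RRAGC with 521 ± 61.2, LAMTOR1 with 482 ± 73.8, LAMTOR2 with 265 ± 126, LAMTOR3 with 203 ± 32.4, RRAGA with 187 ± 66.04, FNIP1 with 121 ± 13.2, FLCN with 33.3 ± 6.42 and RRAGB with 29.1 ± 9.07 (SD, n = 3). The gaps below FNIP2, below LAMTOR1 and below FNIP1 exceeded the added SDs of the neighbours, and the other gaps did not. Genes of a library share its scaling, and the SDs take no account of this pairing. In TFEB-Veh the order was LAMTOR2 with 164 ± 85.3 per kilobase, RRAGD with 136 ± 40.7, LAMTOR1 with 114 ± 35.5, LAMTOR3 with 49.7 ± 7.54, RRAGA with 36.1 ± 17.8, FNIP1 with 33.6 ± 8.78, RRAGC with 29.4 ± 6.46, FNIP2 with 19.6 ± 1.57, RRAGB with 19.1 ± 6.94 and FLCN with 6.84 ± 0.0514. In TFEB-Veh the gaps below LAMTOR1, between RRAGC and FNIP2, and above FLCN exceeded the added SDs. FNIP2, eighth in TFEB-Veh, was second in TFEB-Dox. FLCN's mean level per kilobase was 6.84 in TFEB-Veh, 5.96 in EV-Dox and 8.26 in EV-Veh. For comparison, 15 markers of cells not in the culture (T and NK, B, erythroid, epithelial and fibroblast) had a median level per kilobase of 6.23 in TFEB-Dox, 8.46 in TFEB-Veh, 8.39 in EV-Dox and 6.06 in EV-Veh, the highest reaching 13.9 to 15.8. By this measure FLCN in the controls lay inside the range of those markers, and in TFEB-Dox above it. The exon union of FLCN holds 9786 bases, and the lengths of the transcripts expressed, of FLCN or of the markers, were not examined. How far such background lowers FLCN's fold was not tested. In bulk RNA, fewer cells expressing a gene and less RNA per cell cannot be told apart.

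Promoters of 8 of the 10 genes could be read from the RefSeq table (GRCh38.p14, 250 bases before to 50 after each start). None was listed for RRAGA or RRAGD. TFEB binds E-boxes with the letters CACGTG, which read the same on both strands, within a longer element of lysosomal gene promoters. CACGTG was present in 4 of these 8 genes, FNIP1, LAMTOR1, RRAGB and RRAGC. Counted by promoter, it was in 4 of their 10 and in 7.26% of the 35116 promoters in the table. In the 250 bases before the start alone the same 4 genes held it, against 6.34% of promoters. The longer TCACGTGA, which contains CACGTG, was in RRAGB and in 0.98% of promoters, and GTCACGTG or CACGTGAC, the same letters on either strand, was in FNIP1, RRAGB and RRAGC and in 2.40%. The stretches around the matches are shown with CACGTG in capitals, because genes with it (RRAGC, FNIP1, LAMTOR1, RRAGB) and the gene with the highest rise (FNIP2) can then be set side by side. The RRAGC stretch is chr1:38859859-38859904 (minus strand), with the match 112 bases before the start. The FNIP1 stretch is chr5:131797086-131797212 (minus strand), with matches 175 and 94 bases before it. The LAMTOR1 stretch is chr11:72103437-72103482 (minus strand), with the match 165 bases before it. The RRAGB stretch is chrX:55717614-55717748 (plus strand), with matches 115 and 25 bases before it and a further match, not shown, 7 bases after it. The FNIP2 stretch is chr4:158768926-158769025 (plus strand), the 100 bases before its first listed start, which hold no match.
RRAGC: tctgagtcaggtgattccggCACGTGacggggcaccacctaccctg
FNIP1: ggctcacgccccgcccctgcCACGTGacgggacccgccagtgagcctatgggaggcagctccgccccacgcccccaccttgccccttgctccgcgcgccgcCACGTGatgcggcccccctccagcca
LAMTOR1: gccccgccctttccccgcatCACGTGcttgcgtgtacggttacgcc
RRAGB: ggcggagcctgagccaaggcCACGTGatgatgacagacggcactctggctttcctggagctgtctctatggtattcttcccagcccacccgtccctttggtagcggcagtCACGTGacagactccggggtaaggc
FNIP2: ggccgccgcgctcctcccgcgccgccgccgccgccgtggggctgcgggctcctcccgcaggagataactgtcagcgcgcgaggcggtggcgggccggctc
The windows of FLCN, LAMTOR2 and LAMTOR3 held no CACGTG either. Set beside the changes against TFEB-Veh, RRAGC has 1 match and a change of 4.16, LAMTOR1 has 1 and 2.11, FNIP1 has 2 and 1.87, and RRAGB has 3 and 0.62. Of the genes with no match in their windows, FNIP2 changed by 6.03, FLCN by 2.25 and LAMTOR3 by 2.02, and LAMTOR2 had a change of 0.71. The letters alone do not show a bound site, and their absence from this window says nothing about sites elsewhere.

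TFEB-Dox was also set against EV-Dox, in which the drug is shared and the insert differs. Here all 10 genes were called higher, where 27.2% of all tested genes were. With only genes of a mean of at least 50 tested, 48.8% were higher, with a median change of 1.00. FNIP2 rose by 6.21 (limma adjusted p = 2.70e-14), RRAGC by 4.39 (5.06e-11), RRAGD by 4.32 (1.48e-08) and RRAGA by 3.08 (1.59e-09). Smaller rises were measured for FLCN (2.49), FNIP1 (2.47), LAMTOR1 (2.46) and LAMTOR3 (2.38), with limma adjusted p from 1.00e-07 to 0.000182. LAMTOR2 rose by 1.41 (limma adjusted p = 0.0141) and RRAGB by 0.82 (0.0470), but both calls were lost under other settings. With libraries scaled on expressed genes the changes were 0.04 (adjusted p = 0.891) and -0.53 (0.180). LAMTOR2 was also not called without TFEB-Dox replicate 2 (adjusted p = 0.132) or replicate 3 (0.0511), and RRAGB not without TFEB-Dox replicate 2 or 3, EV-Dox replicate 2 or 3, or TFEB-Veh replicate 2 (0.0540 to 0.256). RRAGB was called in 13 of 26 alternatives; it was also not called with no filter (adjusted p = 0.142), with no variance trend (0.110), by edgeR (0.270) or by DESeq2 (0.150).

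Against EV-Veh, the cells with neither the insert nor the drug, 6 genes were called higher, where 12.2% of all tested genes were. With only genes of a mean of at least 50 tested, 18.6% were higher, and LAMTOR1 was called too (limma adjusted p = 0.0448). FNIP2 rose by 5.35 (limma adjusted p = 2.25e-12), RRAGC by 3.48 (2.04e-08), RRAGD by 2.92 (4.20e-05), RRAGA by 2.09 (8.12e-06), FLCN by 2.03 (7.06e-06) and LAMTOR3 by 1.43 (0.0166). LAMTOR3 was not called without EV-Veh replicate 1 or 3 or TFEB-Dox replicate 1 or 2 (limma adjusted p of 0.0627 to 0.115). LAMTOR1 changed by 1.31 (limma adjusted p = 0.0634) and FNIP1 by 1.08 (0.101), neither called. With the replicate number as a block LAMTOR1 was called (adjusted p = 0.0220), and it was called without EV-Veh replicate 2 (1.75, adjusted p = 0.0134), EV-Dox replicate 3 (0.00680) or EV-Dox replicate 1 (0.0287). FNIP1 was called without EV-Veh replicate 2 (1.38, adjusted p = 0.0384) or EV-Dox replicate 3 (0.0272). Both were called with libraries scaled on expressed genes (LAMTOR1 1.22, adjusted p = 2.88e-05, and FNIP1 0.99, 5.22e-05). RRAGB (0.33, limma adjusted p = 0.569) and LAMTOR2 (0.03, 0.981) were not called.

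The 3 comparisons share the TFEB-Dox libraries, so they are not independent of each other. Called higher in each of them were FLCN, FNIP2, RRAGA, RRAGC, RRAGD and LAMTOR3, 6 of 10. Of all tested genes 10.7% were, and 17.8% with only genes of a mean of at least 50 tested. The count of 6 ranged from 5 to 8 over the alternatives.

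**Figure D2:**
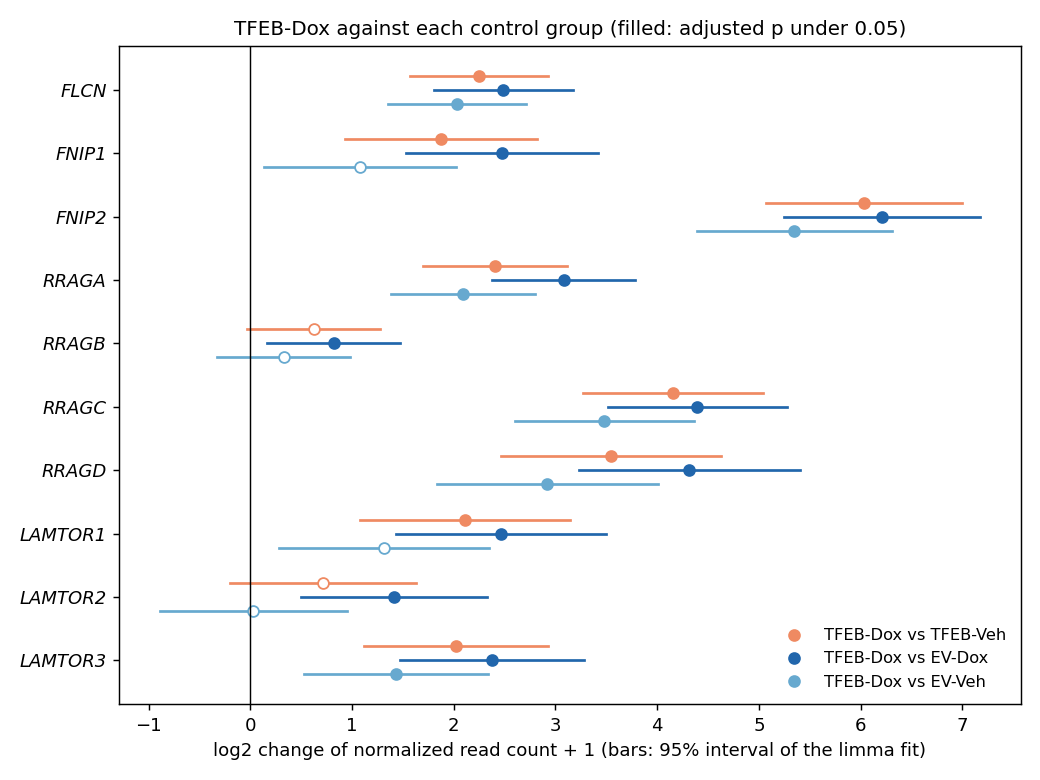
Log2 change of normalized read count + 1 in TFEB-Dox against TFEB-Veh, EV-Dox and EV-Veh for each gene; points are limma estimates, bars their 95% intervals, and filled points have an adjusted p under 0.05. FNIP2 lies at 5.35 to 6.21 and RRAGC at 3.48 to 4.39 against the 3 controls, while RRAGB and LAMTOR2 stay between 0.03 and 1.41.

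Ratios between genes of the same library, taken on log2(value + 1), cancel the scaling of libraries apart from the added 1. They were compared between the 3 TFEB-Dox libraries and the 9 controls with an exact two-sided permutation test, for which 0.00909 is the smallest p possible, adjusted over the 5 ratios computed. The test treats the 3 control groups as exchangeable, and the pairs of genes were chosen with the rise of FNIP2, RRAGC and RRAGD already known. FNIP2 to FNIP1 showed the widest separation, with log2 ratios of 3.71, 4.06 and 3.84 in TFEB-Dox and of -0.61 to 0.67 in the controls. The geometric mean ratio was 14.6 in TFEB-Dox, 0.817 in TFEB-Veh, 1.10 in EV-Dox and 0.759 in EV-Veh. The difference of mean log2 ratios was 4.05 (exact permutation p = 0.00909, adjusted p = 0.0152).

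RRAGB to RRAGA had log2 ratios of -1.64, -1.90 and -2.07 in TFEB-Dox and of -0.34 to 0.53 in the controls, again without overlap. The difference of -1.93 (exact permutation p = 0.00909, adjusted p = 0.0152) is a shift towards RRAGA, with a geometric mean ratio of 0.273 in TFEB-Dox, 0.939 in TFEB-Veh, 1.31 in EV-Dox and 0.928 in EV-Veh. RRAGC to RRAGA, which can form a Rag dimer, had log2 ratios of 3.77, 2.90 and 3.03 in TFEB-Dox and of 1.02 to 2.05 in the controls, a difference of 1.48 (exact permutation p = 0.00909, adjusted p = 0.0152). With each TFEB-Dox library left out in turn, the difference was 3.96 to 4.13 for FNIP2 to FNIP1 and -2.05 to -1.83 for RRAGB to RRAGA. For RRAGC to RRAGA it was 1.22 to 1.65. The adjusted p of the exact permutation test was then 0.0606 for each of these ratios, with 2 libraries against 9 and few possible splits.

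RRAGD to RRAGC, the alternative partners, did not separate. The log2 ratio averaged 1.54 ± 0.17 in TFEB-Dox, 2.15 ± 0.20 in TFEB-Veh, 1.61 ± 0.37 in EV-Dox and 2.10 ± 0.10 in EV-Veh (SD, n = 3 each). The difference between TFEB-Dox and the controls was -0.42 (exact permutation p = 0.1, adjusted p = 0.125), and -0.51 (adjusted p = 0.0303) without EV-Dox replicate 3. FLCN to LAMTOR1 differed by 0.29 (exact permutation p = 0.436), within the spread of the controls.

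**Figure D3:**
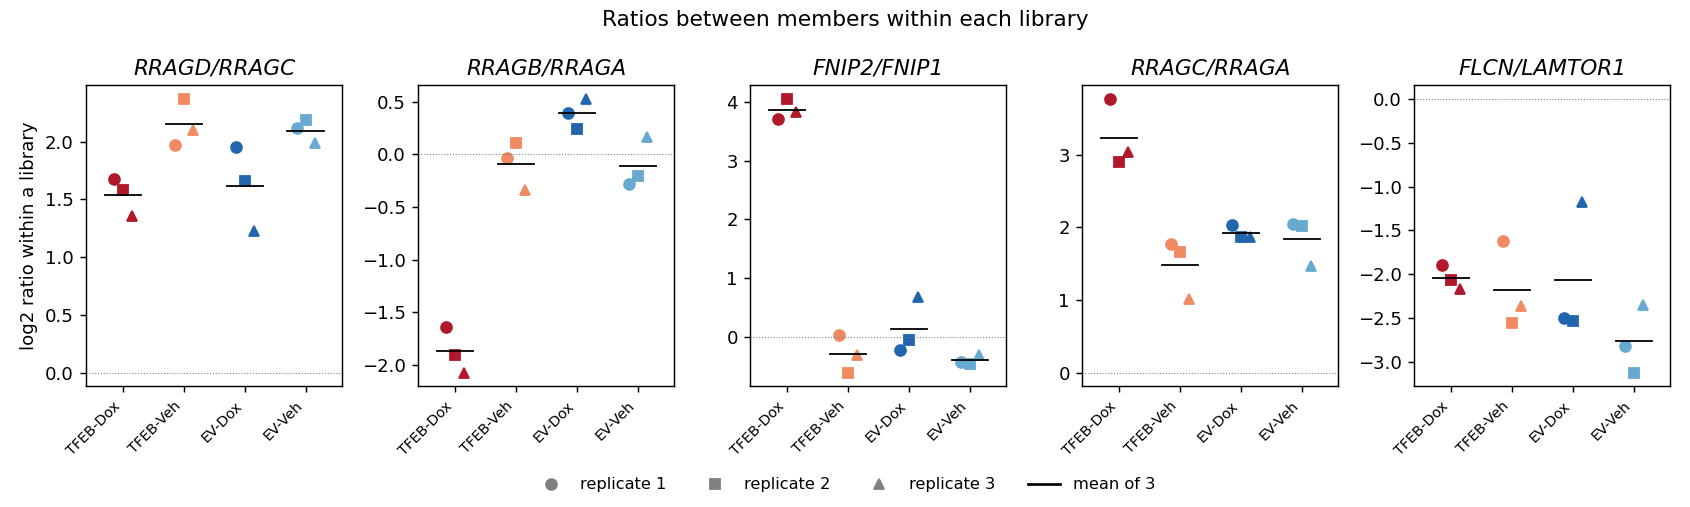
Log2 ratio of normalized reads of paired genes within each library, by group; symbols are replicates and the bar is their mean. For FNIP2/FNIP1 and RRAGC/RRAGA the TFEB-Dox libraries lie above, and for RRAGB/RRAGA below, all 9 controls, while RRAGD/RRAGC and FLCN/LAMTOR1 overlap.

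EV-Dox against EV-Veh gives the change with the drug where no TFEB insert is present. On the deposited scale 4 genes were called lower, where 23.3% of all tested genes were. With only genes of a mean of at least 50 tested, 51.7% were lower, with a median change of -1.05. RRAGD fell by 1.40 (limma adjusted p = 0.0487), FNIP1 by 1.39 (0.0282), LAMTOR2 by 1.38 (0.0258) and RRAGA by 0.99 (0.0349). The other 6 had changes of -1.15 (LAMTOR1) to -0.46 (FLCN) and were not called. This count depended on single libraries and on the scaling. It was 0 without EV-Veh replicate 2, EV-Dox replicate 2 or EV-Dox replicate 3, 0 without EV-Veh replicate 2 and EV-Dox replicate 3 together, 2 without EV-Veh replicate 1, 6 without EV-Veh replicate 3 and 7 without EV-Dox replicate 1. With libraries scaled on expressed genes, which shifted the median of all tested genes to 1.17, no gene was lower and FLCN was called higher (0.82, limma adjusted p = 0.0304), where 43.3% of all tested genes were higher. FLCN on that scale averaged 103 ± 32.5 in EV-Dox and 56.5 ± 5.12 in EV-Veh (SD, n = 3 each). No direction held under every scaling for FLCN, FNIP2, RRAGA, RRAGB, RRAGC, LAMTOR1 or LAMTOR3 in this comparison.

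**Figure D4:**
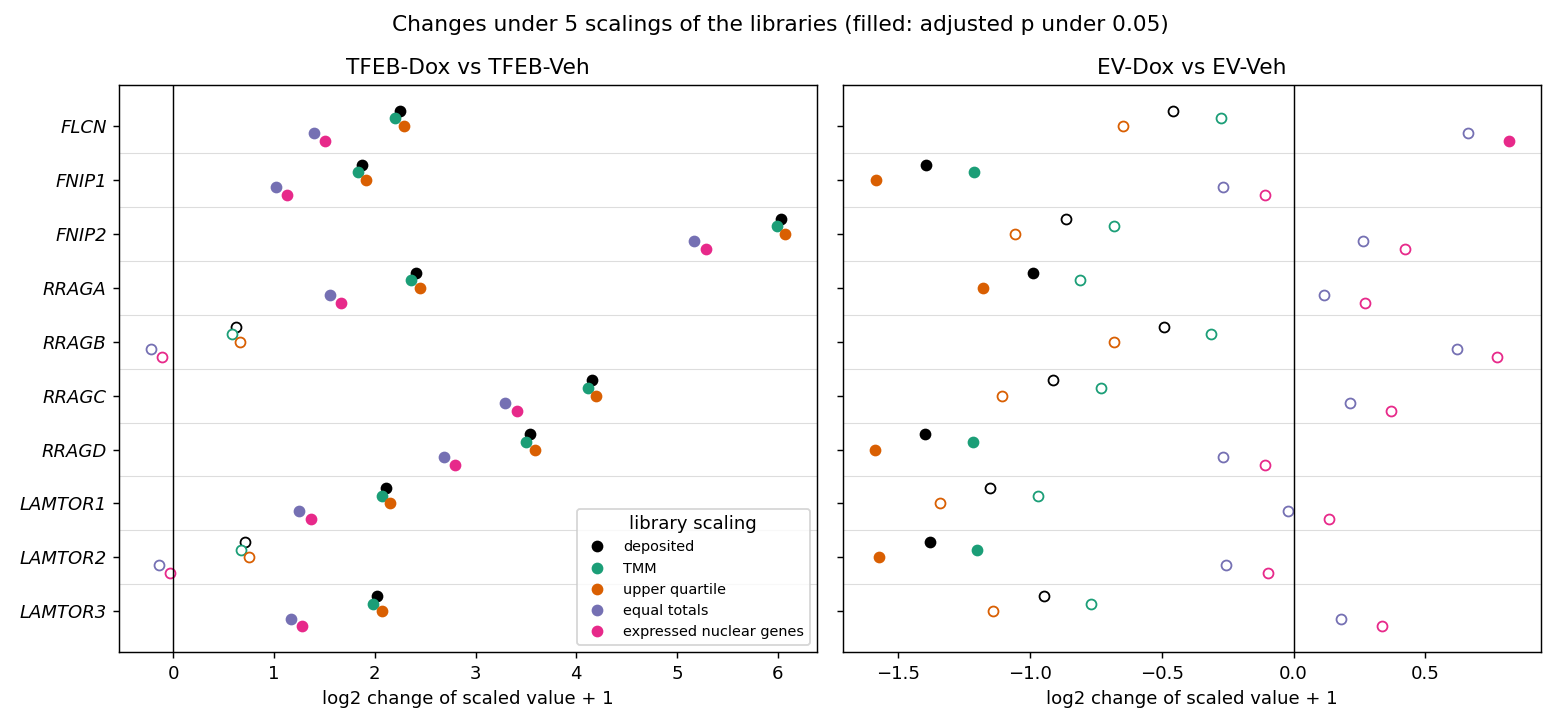
Log2 change of each gene in TFEB-Dox against TFEB-Veh (left) and EV-Dox against EV-Veh (right) under 5 scalings of the libraries; filled points have a limma adjusted p under 0.05. The left panel keeps 8 genes filled and above 0 under each scaling, and the right panel crosses 0 for 7 genes.

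TFEB-Veh against EV-Veh compares the lines without the drug. None of the 10 genes was called, with changes of -0.80 (LAMTOR1) to -0.22 (FLCN), and 0.0% of all tested genes were called. Of the 23128 genes 1754 had an unadjusted limma p under 0.05, and edgeR and DESeq2 also called 0 (2754 and 1903 at an unadjusted p under 0.05).

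The response to doxycycline in the TFEB line minus that in the EV line was tested as an interaction. It was called and positive for 9 genes, all but RRAGB (1.12, limma adjusted p = 0.0528), where 29.2% of all tested genes were called in that direction. With only genes of a mean of at least 50 tested, 55.0% were, with a median of 1.59. RRAGB was called there too (limma adjusted p = 0.0396). FNIP2 differed by 6.90 (SE 0.67, limma adjusted p = 8.91e-11), RRAGC by 5.07 (2.15e-08), RRAGD by 4.94 (2.58e-06) and RRAGA by 3.39 (9.49e-07). Part of these sizes lies in the falls measured in the EV line. With libraries scaled on expressed genes 7 were called, where 10.1% of all tested genes were. FNIP2 then differed by 4.86, RRAGC by 3.04 and RRAGD by 2.90, and the differences of FLCN (0.69, adjusted p = 0.127), LAMTOR2 (0.06, 0.880) and RRAGB (-0.89, 0.124) were not called. LAMTOR2 was also not called without TFEB-Dox replicate 2 (adjusted p = 0.0548) or TFEB-Veh replicate 1 (0.0618). RRAGB was called without EV-Dox replicate 1, EV-Veh replicate 1, TFEB-Dox replicate 1 or TFEB-Veh replicate 3 (0.0211 to 0.0413).

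The rest of the pathway was described with 8 lists of 38 other genes, of which 37 were tested. In TFEB-Dox against TFEB-Veh, 11 rose and 3 fell, where 17.4% of all tested genes rose and 4.66% fell. Their median change was 0.61, beside 2.18 for the 10 genes above. Most of them have a mean of at least 50. With only genes of that level tested, 30.5% rose and 5.36% fell, with a median of 0.47. With libraries scaled on expressed genes 9 rose and 10 fell, where 13.1% and 19.0% of all tested genes did, with a median of -0.14, and 8 of the first 10 genes still rose. The lists are small, and their counts below stand beside those shares. The count of rises was 6 without TFEB-Veh replicate 1 or TFEB-Dox replicate 2.

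LAMTOR5, a further Ragulator subunit, averaged 3885 ± 791 normalized reads in TFEB-Dox and 420.0 ± 165 in TFEB-Veh (SD, n = 3 each) and rose by 3.27 (SE 0.50, limma adjusted p = 1.35e-06). LAMTOR4, the remaining subunit, averaged 237 ± 34.7 in TFEB-Dox and 189 ± 70.2 in TFEB-Veh, a change of 0.39 (limma adjusted p = 0.560) that was not called. Of the RHEB and TSC genes 3 of 4 rose, among them TBC1D7, the small subunit of the TSC complex (2.62, limma adjusted p = 3.97e-07), and RHEB, the GTPase that activates mTORC1 (2.59, 0.000261). With libraries scaled on expressed genes 3 of the 4 were higher and 1 was lower.

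Of the 5 mTORC1 core genes RPTOR, the subunit that meets the Rag dimer, rose by 1.48 (limma adjusted p = 0.0414) and DEPTOR, an inhibitory subunit, fell by 1.27 (0.00311). DEPTOR was low, with means of 29.8 in TFEB-Dox and 76.1 in TFEB-Veh. The markers of cells not in the culture had means of 8.36 to 88.8 over all libraries. GATOR2, which opposes GATOR1, had 2 of 5 genes higher, SEC13 (1.56, limma adjusted p = 0.0170) and WDR24 (1.20, 0.0287), the second not called on the scale of expressed genes, on which 1 of the 5 was higher and 1 lower. Of GATOR1, the GTPase-activating complex for RagA and RagB, 1 of 3 genes was called, NPRL2, which fell by 1.60 (limma adjusted p = 0.00236), and 2 were lower with libraries scaled on expressed genes. None of the 4 KICSTOR genes, whose products hold GATOR1 at the lysosome, was called on the deposited scale, and 2 were lower on that of expressed genes. Of 6 tested nutrient sensors the sestrin SESN2 rose by 2.34 (limma adjusted p = 0.000271) and SESN3 fell by 1.25 (0.0403), and 1 was higher and 3 lower on the scale of expressed genes. BORC, which positions lysosomes and binds Ragulator, had 3 of 8 genes higher, the largest being BLOC1S2 (2.80, limma adjusted p = 6.07e-07) and C10orf32 (1.28, 0.0223), the second not called with libraries scaled on expressed genes.

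**Figure D5:**
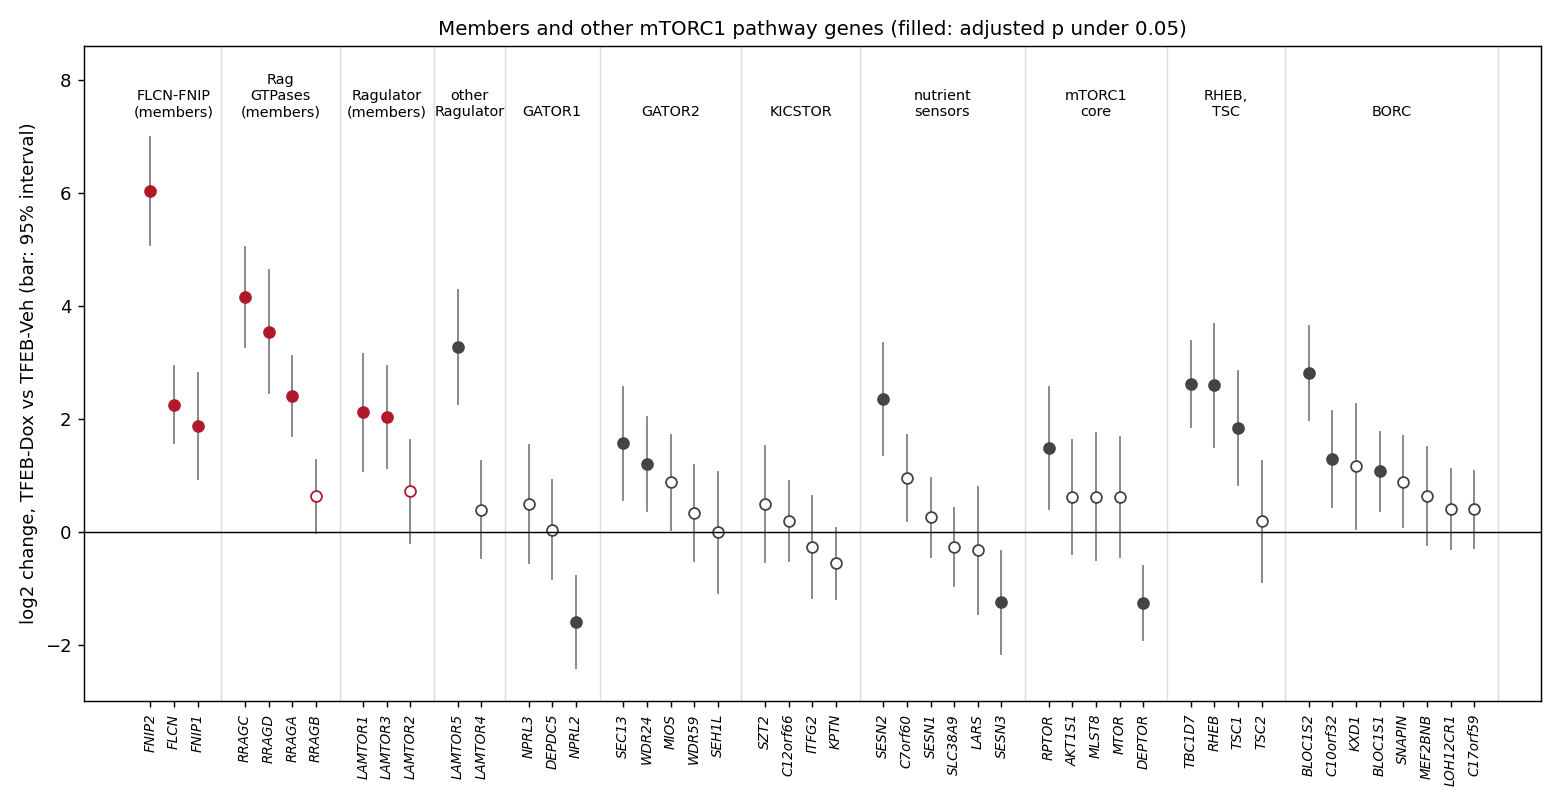
Log2 change of normalized read count + 1 in TFEB-Dox against TFEB-Veh for the 10 genes (red) and 37 other pathway genes (dark grey), by complex; points are limma estimates, bars 95% intervals, and filled points have an adjusted p under 0.05. The 10 genes have a median of 2.18 and the others of 0.61.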

How the data were processed

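Per the submitters' processing notes, reads were aligned with STAR 2.5.3a and counted with HTSeq 0.6.1; libraries were made from total RNA with a NuGEN Ovation FFPE kit, per the labels' protocols. Neither the labels nor the notes used here state a genome build, annotation release or strand setting for the counting. The authors deposited a normalized read count for every gene in every library, treated here as a signal value. Within each library all values (100%, tolerance 0.01) were whole multiples of 1 step (0.803 to 1.22), so whole reads were recovered by division. In EV-Veh replicate 2 and TFEB-Veh replicate 3 the step lay less than 1% from 1, and rounding would look the same only at low counts. At higher counts it would not: FNIP1 in EV-Veh replicate 2 had 686 normalized and 692 recovered reads. Replicates differed beyond counting error (chi-square per degree of freedom 10.4 to 35.3 over 12 pairs).

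Values + 1 were log2-transformed, genes with a mean of at least 10 kept (23128 of 57820), and 1 mean per group fitted to the 12 libraries with limma 3.58.1 in R 4.3.3 (empirical Bayes with trend, two-sided, Benjamini-Hochberg threshold 0.05). The procedure was also run on simulated data whose libraries were levelled first, so that run does not cover the uneven scaling of the deposited values. Alternatives were pseudocounts 0.5 and 5, no filter or a mean of at least 50, TMM, equal totals, upper quartiles or the median ratio of expressed nuclear genes as scaling, no trend, the compared groups alone, a replicate block, edgeR 4.0.16 and DESeq2 1.42.0 on recovered reads, and each library left out. Leaving out EV-Veh replicate 2 and EV-Dox replicate 3 together was added after seeing the data. The same-numbered libraries of TFEB-Dox and TFEB-Veh (r of 0.13 to 0.32) and of TFEB-Dox and EV-Veh (0.29 to 0.37) deviated together from their group means; in the other 4 pairs of groups they did not in every pair (lowest r -0.57), and the labels tie the numbers to no shared batch.

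The genes, gene lists, markers and gene pairs were chosen with earlier results of these data known. The text names all 10 genes, TFEB, and from each list up to 2 called genes with the largest change in each direction, besides LAMTOR4 and LAMTOR5, and the 3 genes most correlated with each of FLCN, FNIP2, RRAGC and RRAGD, 1 of which is not reported here; the 4 macrophage markers are named after their values were seen. Promoter sequences are from RefSeq (GRCh38.p14), exon lengths from GENCODE 29. No protein sequence was used here. Ratios and figures were made with Python 3.11.15, scipy 1.17.1 and matplotlib 3.10.9.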

Additional observations from a re-analysis of the deposited data

Results flagged for a closer look

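The response to doxycycline differed between the TFEB line and the EV line by the interaction test (limma, adjusted over all tested genes) for 9 of the 10 genes. On the log2 scale, the response in the TFEB line minus that in the EV line was 6.90 for FNIP2, 5.07 for RRAGC, 4.94 for RRAGD, 3.39 for RRAGA, 3.27 for FNIP1, 3.26 for LAMTOR1, 2.97 for LAMTOR3, 2.70 for FLCN and 2.09 for LAMTOR2. Of all tested genes 29.2% were called in this direction, and 55.0% with only genes of a mean of at least 50 tested. The differences of FLCN and LAMTOR2 were not called when libraries were scaled to equal totals or on expressed genes.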

How the results depend on the processing

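Over single genes and alternatives, 1432 of the results kept direction and call, 64 lost a call, 34 gained one and 46 changed sign. The count of 8 rises in TFEB-Dox against TFEB-Veh was the same under every alternative run. The replicate block moved no count of calls by over 1.5 times; it added LAMTOR1 against EV-Veh (adjusted p = 0.0220), LAMTOR1 in EV-Dox against EV-Veh (0.0401) and RRAGB in the interaction (0.0294), and changed no other call of the 10 genes. The 4 falls in EV-Dox against EV-Veh became 2 with no filter, 0 with equal totals, 0 with expressed-gene scaling (where 1 gene rose), 1 with the compared groups alone, 1 with edgeR, 0 without EV-Veh replicate 2 and EV-Dox replicate 3 together, and 0 to 7 without 1 library. Of the other pathway genes, 11 rises became 6 to 14 without 1 library (15 without both libraries named above), and 3 falls became 12 with equal totals and 10 with expressed-gene scaling.

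With equal totals and with expressed-gene scaling, changes of sign were measured for RRAGB (-0.22 and -0.11) and LAMTOR2 (-0.14 and -0.034) against TFEB-Veh, RRAGB against EV-Dox (-0.59 and -0.53) and RRAGB in the interaction (-0.84 and -0.89). LAMTOR2 against EV-Dox was -0.021 with equal totals, and against EV-Veh -0.28 with equal totals, -0.058 with expressed-gene scaling, -0.090 with upper quartiles and -0.32 to 0.42 without 1 library. In EV-Dox against EV-Veh the 2 scalings gave FLCN 0.66 and 0.82, FNIP2 0.26 and 0.42, RRAGA 0.12 and 0.27, RRAGB 0.62 and 0.77, RRAGC 0.21 and 0.37 and LAMTOR3 0.18 and 0.34; LAMTOR1 was 0.14 with expressed-gene scaling, and edgeR gave FLCN 0.16 and RRAGB 0.063. In TFEB-Veh against EV-Veh equal totals, expressed-gene scaling and edgeR gave FLCN 0.33, 0.44 and 0.22, RRAGA 0.23, 0.34 and 0.18 and RRAGB 0.25, 0.35 and 0.12; RRAGD was 0.040 and LAMTOR3 0.068 with expressed-gene scaling, and without 1 library FLCN ranged from -0.40 to 0.043 (0.043 also without EV-Veh replicate 2 and EV-Dox replicate 3), RRAGA from -0.68 to 0.021 and RRAGB from -0.56 to 0.013. Without 1 library the log2 ratio difference was -2.05 to -1.83 for RRAGB/RRAGA, 3.96 to 4.16 for FNIP2/FNIP1 and 1.22 to 1.65 for RRAGC/RRAGA. That of RRAGD/RRAGC ranged from -0.51 to -0.32 and was -0.51 (adjusted p = 0.0303) without EV-Dox replicate 3. The cause of these shifts was not tested.

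Counts over all genes moved more: falls in TFEB-Dox against TFEB-Veh were 1077 as reported and 6711 with equal totals, rises in EV-Dox against EV-Veh 783 as reported, 10866 with expressed-gene scaling and 77 without EV-Veh replicate 2. edgeR called 4489 rises and 2196 falls and DESeq2 4630 and 1592 in TFEB-Dox against TFEB-Veh, where limma called 4032 and 1077. Low depth limits RRAGA, RRAGB and FLCN, with as few as 26, 35 and 49 recovered reads in a library.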

Other observations

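Over the 12 libraries, the deposited log2 values of 12060 other genes with a mean of at least 50 were correlated with 4 of the genes. All 12 points share the gap between TFEB-Dox and the controls and the library scaling, so the coefficients are a description. Among the genes with the highest Pearson r were CYSTM1 (0.998) and TDRD3 (0.997) for FNIP2, SS18L1 (0.998), LMTK2 (0.997) and DTNBP1 (0.997), a subunit of the BLOC-1 complex, for RRAGC, and LSS (0.998), an enzyme of sterol synthesis, ATP6V1F (0.998), a subunit of the lysosomal proton pump, and PSMA7 (0.997), a proteasome subunit, for RRAGD. For FLCN they were DVL2 (0.995), FAM83G (0.993) and PTP4A3 (0.993).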
